A study of Homo sapiens with 8 samples.

Results

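The 10 genes described here encode subunits of the transcription factor NF-kB, inhibitors of it, and genes that it activates. They are *NFKB1*, *NFKB2*, *RELA* and *RELB* (subunits), *NFKBIA*, *NFKBIE* and *TNFAIP3* (inhibitors), and *TNFAIP2*, *BIRC3* and *ICAM1* (targets). They were chosen by name and found through the RefSeq accession of each probe, which gave 11 probes for 10 of 22439 named genes. *RELA* has 2 probes and each of the others has 1. These genes, and the pathway lists used below, were chosen with earlier results of these data known. Their counts beside the shares over all genes are therefore a description only. The data are 8 Agilent oligonucleotide arrays, on each of which RNA of treated cells (Cy5, red) and RNA of control cells of the same line (Cy3, green) were hybridized together. EBC-1 and SK-MES-1, both lung squamous cell carcinoma (LUSQ) lines, were transfected with *miR-150-3p*, with 1 array for each line. SBC-3, a small cell lung cancer line, was transfected with siDONSON-1, siDONSON-2 or siDONSON-3, siRNAs against the replication factor gene *DONSON*, with 1 array for each siRNA. A549, a lung adenocarcinoma line, had *LOXL2*, a lysyl oxidase gene, edited with CRISPR/Cas9, with 3 arrays named GE1, GE2 and GE3. The control of the transfections is called mock in 1 label and untransfected in another, and the control of A549 had no editing. Each treatment was given to other cell lines than the rest, so treatment and cell line cannot be told apart between groups. The labels do not say whether GE1 to GE3 are separate clones or cultures, nor whether the arrays of a line share a single control RNA, so p-values measure only the spread between these arrays, which may be technical.

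NF-kB is a family of dimers of REL proteins. In the canonical pathway, RELA paired with p50, the product of *NFKB1*, is held in the cytoplasm by IkB proteins until a signal such as TNF or interleukin 1 makes the IkB kinase mark these inhibitors for destruction. In the noncanonical pathway, RELB pairs with p52, the product of *NFKB2*. NF-kB dimers activate many of their own inhibitors and subunits, among them *NFKBIA*, *NFKBIE*, *TNFAIP3*, *NFKB1*, *NFKB2* and *RELB*, which makes these transcripts a common readout of the pathway in epithelial and tumor cells.

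NF-kB dimers bind a sequence of 10 bases called the kappa B motif. The RefSeq promoter table (GRCh38.p14, windows from 250 bases before to 50 bases after a transcript start) holds 12 windows for 8 of the 10 genes. *RELB* and *NFKBIE* were not analysed in this way. The kappa B consensus, searched on both strands with overlapping matches counted, was found in 6 of the 12 windows and in 5 of the 8 genes, and in 3956 of all 35116 windows (11.3%). The stretches with matches are printed here because they show which of the genes carry the motif close to the start. They are read 5′ to 3′ on the strand of the gene, with matches in capitals. The *NFKB1* stretch is chr4:102501209-102501358, the *BIRC3* stretch chr11:102317274-102317423 and the *TNFAIP3* stretch chr6:137867159-137867258, all on the plus strand. The *NFKBIA* stretch is chr14:35404750-35404869 on the minus strand. The *NFKB2* stretches are chr10:102394462-102394491 and chr10:102394490-102394519 before 1 start, and chr10:102395520-102395549 and chr10:102395674-102395703 before another, on the plus strand.
NFKB1: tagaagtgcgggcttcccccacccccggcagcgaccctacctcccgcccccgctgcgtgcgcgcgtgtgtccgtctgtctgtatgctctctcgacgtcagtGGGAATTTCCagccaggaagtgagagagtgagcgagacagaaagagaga
NFKB2 (chr10:102394462-102394491): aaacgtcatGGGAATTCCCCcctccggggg
NFKB2 (chr10:102394490-102394519): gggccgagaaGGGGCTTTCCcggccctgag
NFKB2 (chr10:102395520-102395549): acccccaccGGGGCTTCCCggattctccta
NFKB2 (chr10:102395674-102395703): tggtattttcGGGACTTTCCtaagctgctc
NFKBIA: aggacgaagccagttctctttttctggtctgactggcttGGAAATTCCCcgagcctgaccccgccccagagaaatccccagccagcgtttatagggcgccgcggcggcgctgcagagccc
TNFAIP3: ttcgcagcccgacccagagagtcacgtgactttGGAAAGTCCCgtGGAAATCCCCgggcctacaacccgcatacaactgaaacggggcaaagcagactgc
BIRC3: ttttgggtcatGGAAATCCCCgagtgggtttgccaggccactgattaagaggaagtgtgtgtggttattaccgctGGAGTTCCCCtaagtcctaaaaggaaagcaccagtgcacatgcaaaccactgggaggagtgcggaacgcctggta
These matches describe the sequence and are not shown to be bound. No match was found in the windows of *RELA*, *TNFAIP2* and *ICAM1*, which says only that these letters are not in those windows.

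The values below are log2 ratios of treated over control, so that 1 stands for a doubling of the signal. The targeted genes went as the labels say. *DONSON* was at -2.15, -1.79 and -2.11 with the 3 siRNAs and *LOXL2* was at -2.49, -2.67 and -2.59 in the edited cells. Probes well above background made up 41.1% to 46.4% of the spots in green and 48.5% to 56.2% in red, and the median error that the scanner software gave to a gene's log2 ratio was 0.21 on every array. No spot was saturated (0). The marker lists did not separate the lines. Of 6 squamous markers, 1 was well above background in EBC-1 control cells (*SOX2*), 3 in SK-MES-1 (*TP63*, *SOX2* and *KRT14*), 2 in SBC-3 and 1 in A549. Of 6 adenocarcinoma markers, *NAPSA*, *MUC1* and *KRT7* were well above background in A549, without *NKX2-1*, but EBC-1 showed the same 3, SK-MES-1 showed 4 and SBC-3 showed 2, so that both LUSQ lines had more of these than of the squamous markers. Of 8 small cell markers, 4 were well above background in SBC-3 (*NEUROD1*, *CHGA*, *SYP* and *YAP1*), 1 in EBC-1 and 2 each in SK-MES-1 and A549. *PTPRC*, a leukocyte marker, was well above background in the control cells of all 4 lines.

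**Figure D1:**
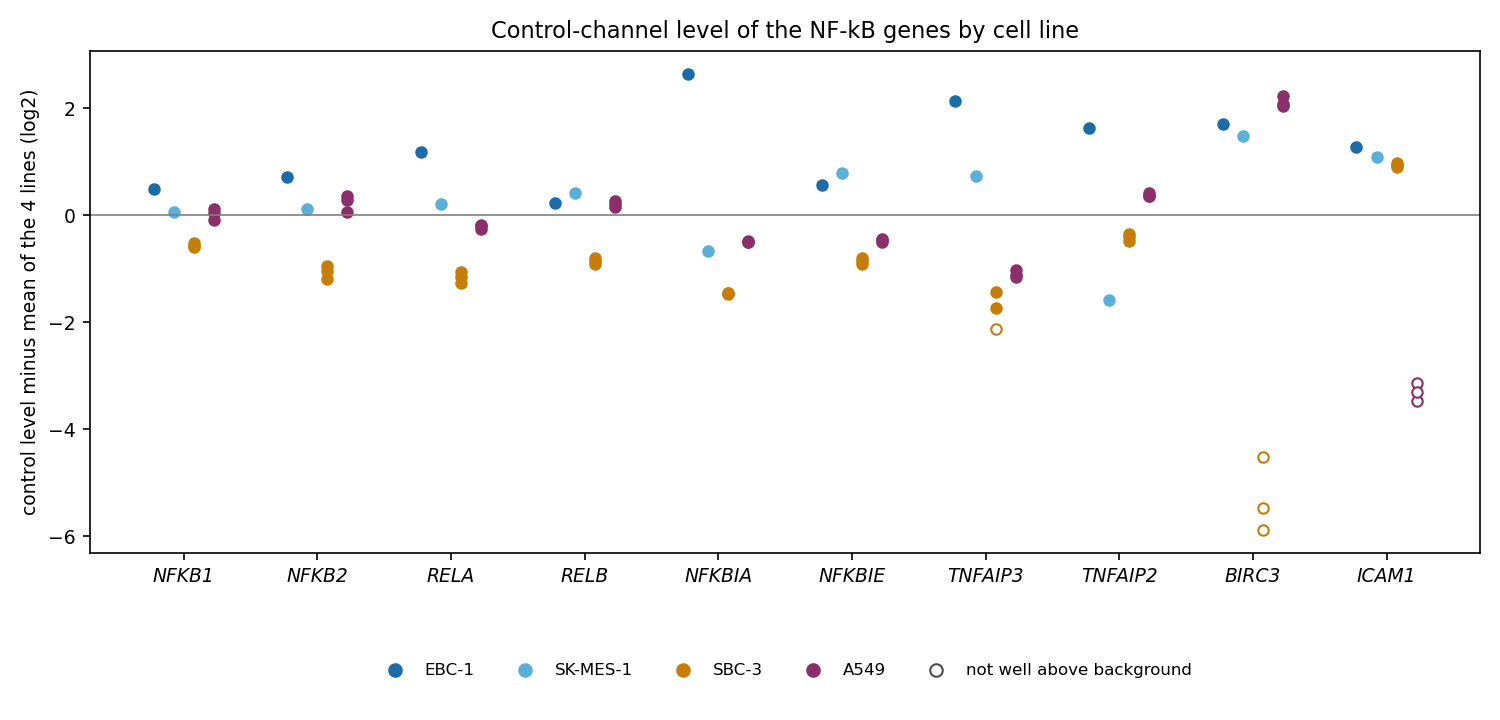
Level of the 10 NF-kB genes in the control channel of each array, on the log2 scale relative to the 75th percentile of the array less the average of the 4 lines for that gene, so that levels can be compared between lines but not between genes. Each point is an array (EBC-1 and SK-MES-1, 1 array each; SBC-3 and A549, 3 arrays each); open points were not well above background. EBC-1 was highest for 7 of the 10 genes and SBC-3 lowest for 8.

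In the control cells, EBC-1 had the highest level for 7 of the 10 genes and SBC-3 the lowest for 8, and the counts for EBC-1 stayed at 7 after quantile normalization of the average intensity. How often these lines ranked highest or lowest over all genes was not counted. Levels are given as log2 of the green signal minus the 75th percentile of the array, and with 1 array for 2 of the lines no test of them was made. Levels of different genes come from different probes and are not compared.

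Among the subunits, *NFKB1* was at 2.50 in EBC-1, 2.07 in SK-MES-1, 1.91 to 2.11 on the 3 A549 arrays and 1.41 to 1.48 on the 3 SBC-3 arrays, so SK-MES-1 lay within the range of A549. *NFKB2* was at 0.74 in EBC-1, 0.13 in SK-MES-1, 0.07 to 0.37 in A549 and -1.17 to -0.94 in SBC-3, and SK-MES-1 again lay within the range of A549. *RELA* stood in the order EBC-1 (3.17), SK-MES-1 (2.20), A549 (1.73 to 1.82) and SBC-3 (0.72 to 0.93), and the level in EBC-1 was 5.06-fold that in SBC-3. *RELB* was at 5.34 in SK-MES-1, at 5.14 in EBC-1 and at 5.07 to 5.19 in A549, so that EBC-1 lay within the range of A549, while SBC-3 was lower, at 4.11 or less on its 3 arrays. After quantile normalization EBC-1 (4.84) lay below A549 (4.99 to 5.10) for this gene, so the order of these lines depended on the scaling.

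Of the inhibitors, *NFKBIA*, which encodes IkB alpha, was at 8.41 in EBC-1, against 5.09 in SK-MES-1, 5.26 to 5.27 in A549 and 4.29 to 4.31 in SBC-3. The level in EBC-1 was 8.83-fold that in A549 and 17.2-fold that in SBC-3. *NFKBIE*, which encodes IkB epsilon, was at 4.34 in SK-MES-1 and 4.11 in EBC-1, 3.05 to 3.10 in A549 and 2.64 to 2.76 in SBC-3. *TNFAIP3*, which encodes the ubiquitin-editing enzyme A20, was at 1.78 in EBC-1, 0.38 in SK-MES-1, -1.51 to -1.39 in A549 and -2.49 to -1.80 in SBC-3, where 1 of 3 arrays was not well above background.

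The targets each had a line that stood apart. *TNFAIP2* was at 9.08 in EBC-1 and 7.80 to 7.86 in A549, 6.96 to 7.10 in SBC-3 and lowest in SK-MES-1, at 5.86, where the level was 9.30-fold below that in EBC-1. *BIRC3*, which encodes the inhibitor of apoptosis protein cIAP2, was at 3.06 to 3.25 in A549, 2.48 in SK-MES-1 and 2.73 in EBC-1, but was not well above background in either channel on any of the 3 SBC-3 arrays. Its level in A549 was at least 50.9-fold that in SBC-3, and the levels in EBC-1 and SK-MES-1 were at least 36.2-fold and 33.4-fold higher. These bounds set a dim probe at the lowest signal that was well above background on its array, after quantile normalization. That signal is the lowest among all such probes and not a detection limit of the dim probe itself. The words at least hold only under this rule. *ICAM1*, which encodes the leukocyte adhesion receptor of the cell surface, was at 1.38 in EBC-1, 1.19 in SK-MES-1 and 1.06 or less on the 3 SBC-3 arrays, but was not well above background in any of the 3 A549 controls. By the same bound, EBC-1 was at least 18.0-fold, SK-MES-1 at least 17.0-fold and SBC-3 at least 15.5-fold higher than A549. In RNA of whole cultures, fewer cells with a transcript and less of it in each cell cannot be told apart.

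**Figure D2:**
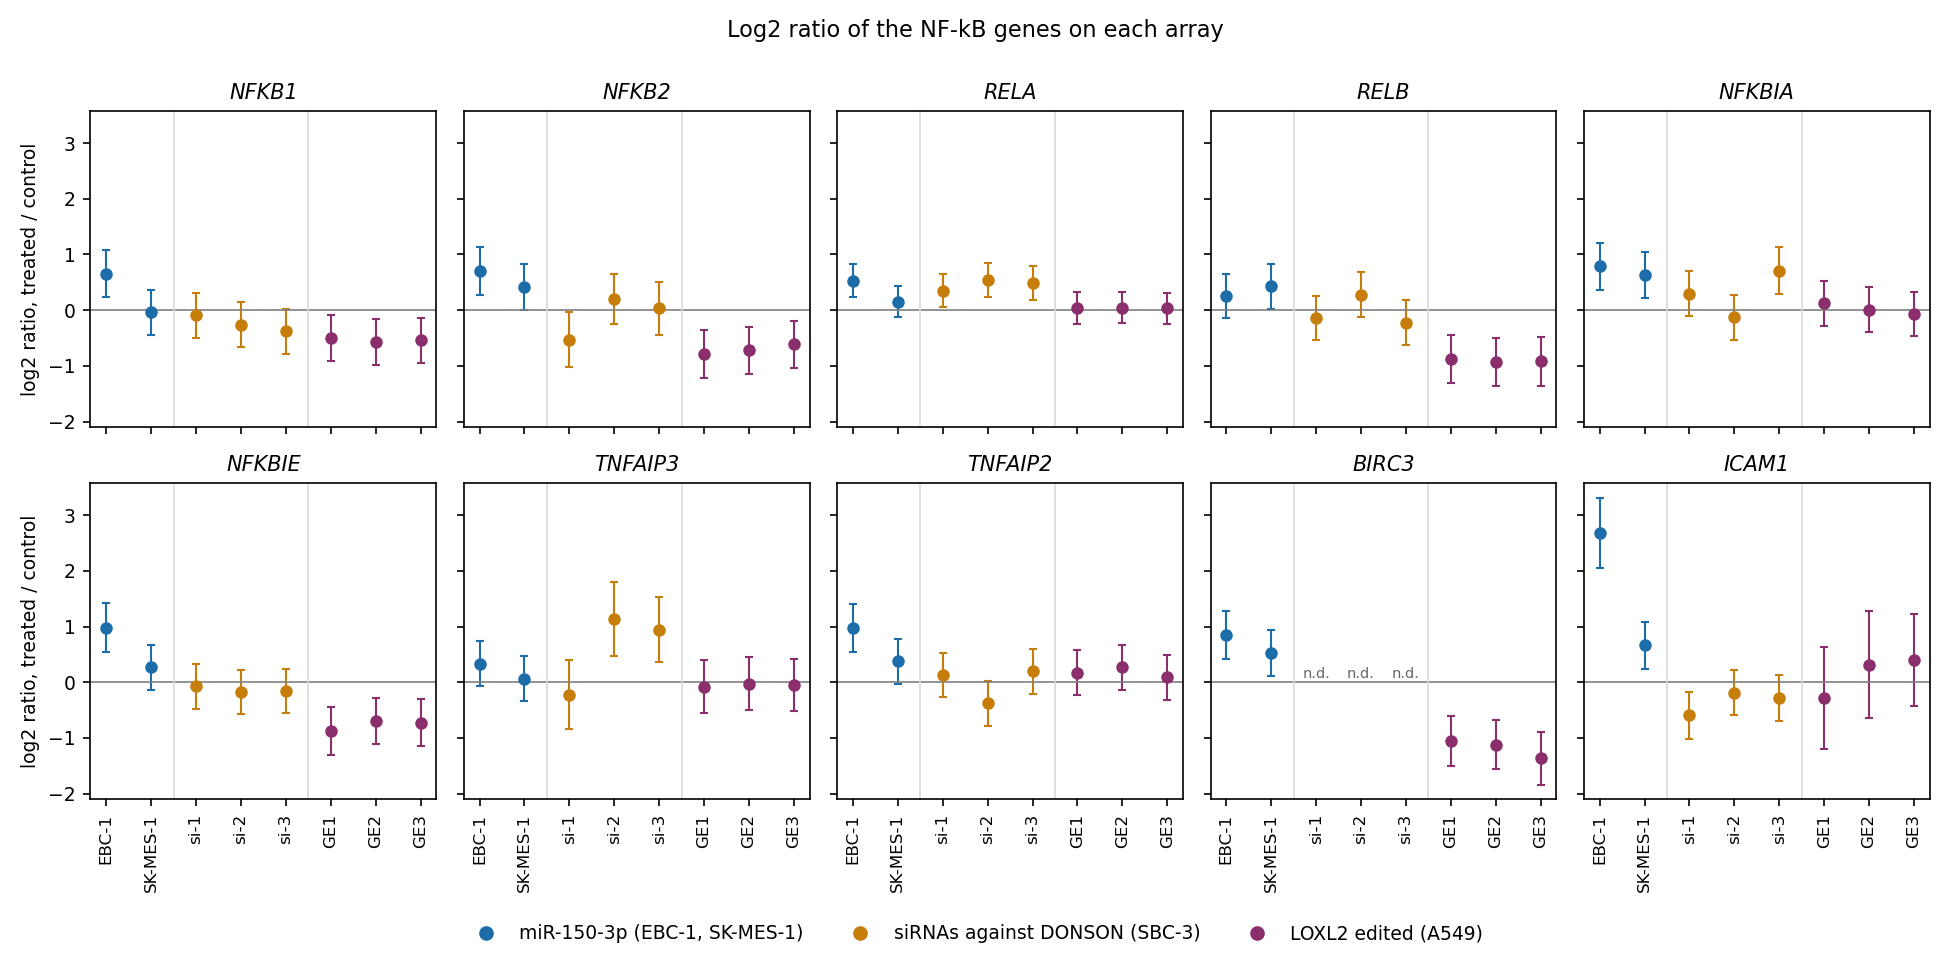
Log2 ratio of treated over control for each of the 10 NF-kB genes on each of the 8 arrays (EBC-1 and SK-MES-1 with *miR-150-3p*; si-1 to si-3, SBC-3 with siDONSON-1 to siDONSON-3; GE1 to GE3, A549 with *LOXL2* edited). Bars are the 95% limits of the scanner software's error, which covers noise within an array only, and n.d. marks arrays with neither channel well above background. All 3 edited A549 arrays lie below 0 for *NFKB1*, *NFKB2*, *RELB*, *NFKBIE* and *BIRC3*.

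In A549 cells with *LOXL2* edited, 5 of the 10 genes were lower than in the control cells. They were *BIRC3*, *RELB*, *NFKBIE*, *NFKB2* and *NFKB1*, and each was lower on 3 of 3 arrays. No gene of the 10 was called higher (0). A gene was called when the group mean differed from 0 at a Benjamini-Hochberg adjusted p under 0.05 in limma, fitted over all genes and all 8 arrays, and over all 15531 genes tested 6.77% were called lower and 7.58% higher. The median over the 10 genes was -0.30, against 0.02 over all genes. When any 1 of the 3 arrays was left out, *BIRC3* and *RELB* remained called, so that 2 of the 10 passed, and the calls over all genes fell in the same fits from 2229 to between 470 and 588 (2.99% to 3.74%). The ratios of GE1 to GE3 lay close together, and with the spread of these arrays alone the same 5 genes were called. That fit called 5873 of all genes (37.8%), so it adds little for these 5 in particular.

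The subunits split into those of the noncanonical pathway and *NFKB1*, which were lower, and *RELA*, which was not called. *RELB* was at -0.88 in GE1, -0.93 in GE2 and -0.92 in GE3. Its mean of -0.91 (SE 0.11, adjusted p = 0.00345) is a 1.88-fold lower level, and the adjusted p lay between 0.00113 and 0.0361 over the alternatives. *NFKB2* was at -0.79, -0.72 and -0.62, and the mean was -0.71 (SE 0.14, adjusted p = 0.0187). *NFKB1* was at -0.50, -0.57 and -0.54, and the mean was -0.54 (SE 0.13, adjusted p = 0.0357). Without an array, the adjusted p of *NFKB2* rose as far as 0.111 and that of *NFKB1* as far as 0.175. *RELA* was at 0.04, 0.05 and 0.03, with a 95% confidence interval of the mean from -0.19 to 0.27. Its 2 probes gave 0.07, 0.12 and 0.09, and 0.00, -0.03 and -0.03.

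Of the inhibitors, *NFKBIE* alone was called. It was at -0.88 in GE1, -0.70 in GE2 and -0.72 in GE3, and averaged -0.77 (SE 0.13, adjusted p = 0.0113, up to 0.0796 without an array), a 1.70-fold lower level. *NFKBIA*, the classical feedback inhibitor, was at 0.12, 0.01 and -0.07, and the 95% interval of its mean ran from -0.33 to 0.36. *TNFAIP3* was at -0.08, -0.03 and -0.05, with an interval from -0.59 to 0.49 and control intensities of only 75.7 to 85.3.

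Of the targets, *BIRC3* fell the most of all 10 genes. It was at -1.05, -1.12 and -1.37, and averaged -1.18 (SE 0.12, adjusted p = 0.00441, between 0.00188 and 0.0392 over the alternatives), a 2.27-fold lower level. For this gene the fit dropped the SBC-3 arrays, which have no value, and so rested on 5 arrays. *TNFAIP2* was at 0.18, 0.27 and 0.09 and was not called (mean 0.18, 95% interval -0.17 to 0.53). *ICAM1* had processed intensities of 26.1, 20.8 and 24.1 in the control cells and 21.5, 25.9 and 31.9 in the edited cells. These values overlap, and as the control was not well above background, no fold is given. Of the 5 genes with a kappa B match in the sequences printed above, *NFKB1*, *NFKB2* and *BIRC3* were lower and *NFKBIA* and *TNFAIP3* were not called. The other lower genes, *RELB* and *NFKBIE*, were not searched for the motif. Whether a match goes with a lower level was not tested.

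**Figure D3:**
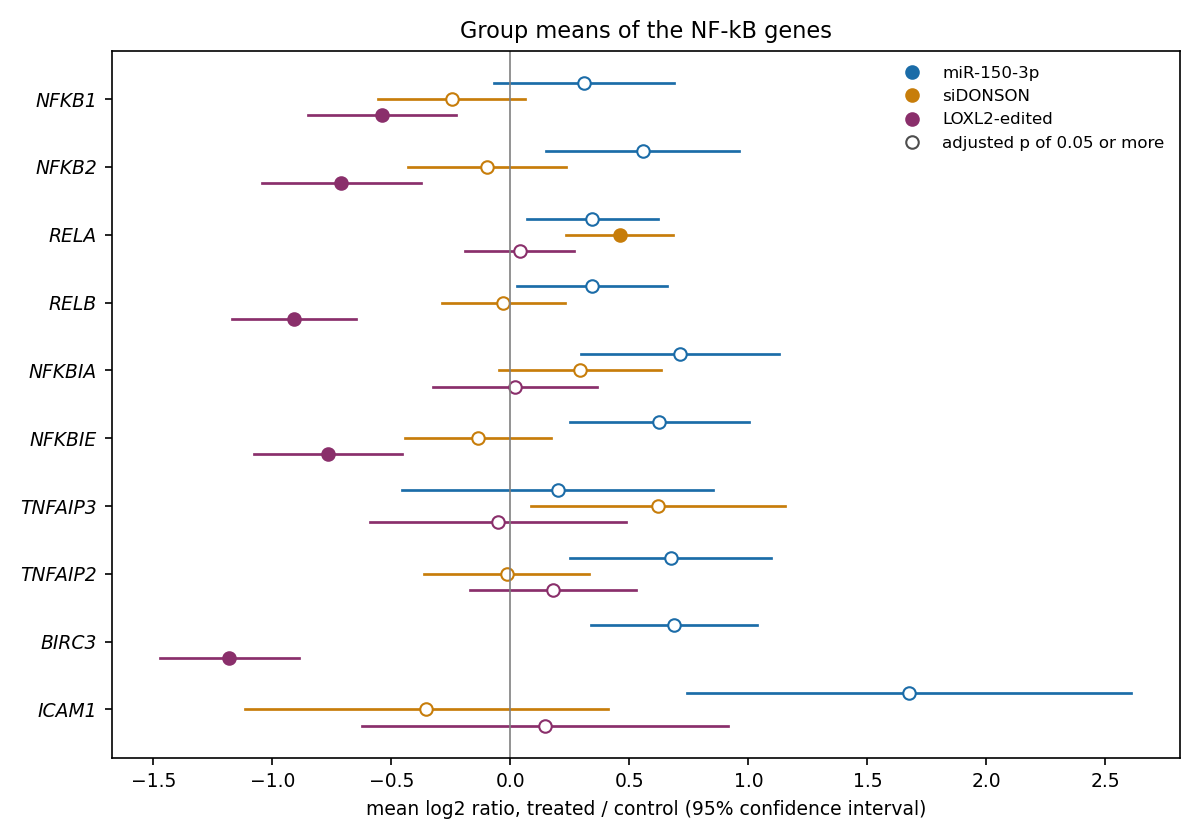
Mean log2 ratio of each NF-kB gene in the 3 treatment groups (*miR-150-3p*, 2 arrays; siDONSON, 3 arrays; *LOXL2*-edited, 3 arrays) from the limma fit, with 95% confidence intervals; filled points have an adjusted p under 0.05. Filled points are *NFKB1*, *NFKB2*, *RELB*, *NFKBIE* and *BIRC3* in the edited cells and *RELA* in the siDONSON cells, and *BIRC3* has no value in the siDONSON group.

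Other genes of the pathway were read from lists of signalling genes upstream of NF-kB, ligands and further targets. The lists, too, were chosen with earlier results of these data known. In the *LOXL2*-edited cells, 36 of 39 signalling genes were tested, of which 3 were lower and 2 were higher. This is near the shares over all genes, of which 6.77% were called lower and 7.58% higher. *SHARPIN*, a part of the linear ubiquitin ligase, was at -0.68 (SE 0.09, adjusted p = 0.00516). The TWEAK receptor gene *TNFRSF12A* was at -0.63 (adjusted p = 0.0359) and *TNIP2*, which encodes an A20-binding protein, was at -0.37 (adjusted p = 0.0342). *BCL3*, which encodes a nuclear IkB protein that binds p50 and p52, was at 0.57 (adjusted p = 0.0117) and the receptor gene *CD40* was at 0.52 (adjusted p = 0.0440). Apart from *SHARPIN* and *BCL3*, none of these was called without any 1 of the edited arrays, with adjusted p up to 0.165 for *TNFRSF12A*, 0.231 for *TNIP2* and 0.227 for *CD40*. *SHARPIN* was lost without GE2 (0.0514) and *BCL3* without GE2 or GE3 (up to 0.0978), and *CD40* was at 0.076 under normexp and loess (adjusted p = 0.377). The list's median was -0.05. Of 10 ligand genes 3 were tested and 0 were called, with 1 at an unadjusted p under 0.05, as had 31.0% of all genes.

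Of 40 further targets, 30 were tested in the edited cells, of which 8 were lower and 3 were higher, with a list median of -0.17. Over all genes, 6.77% were called lower and 7.58% higher. The lower targets included chemokine genes. *CXCL1* was at -2.11, -2.22 and -1.63 (mean -1.98, SE 0.18, adjusted p = 0.00147), *CXCL3* was at -1.83, -1.93 and -1.63 (mean -1.80, adjusted p = 0.000937) and *CXCL2* was at -1.25, -1.30 and -1.38 (mean -1.31, adjusted p = 0.00939). These neutrophil chemokine genes resemble each other in sequence, and cross-hybridization between their probes was not tested. *CCL2*, which encodes a monocyte chemoattractant, was at -2.02, -1.92 and -2.14 (mean -2.03, adjusted p = 0.0152). *PTGS2*, the inducible cyclooxygenase gene, was at -1.36, -1.65 and -1.54 (mean -1.52, adjusted p = 0.0214). Without an array the adjusted p was as high as 0.0630 for *CXCL2*, 0.0880 for *CCL2* and 0.116 for *PTGS2*, while *CXCL1* and *CXCL3* were called in 11 of 11 alternatives. The falls were smaller under normexp and loess. There the means were -1.06 for *CXCL1*, -0.59 for *CXCL3*, -0.94 for *CXCL2*, -1.36 for *CCL2* and -0.55 for *PTGS2*.

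The costimulatory receptor gene *TNFRSF9* fell below background in the edited cells. By the bound used above it was at least 2.92-fold lower there (adjusted p = 0.00304). Under normexp and loess its mean was only -0.17 (adjusted p = 0.0163), so the size of the fall depended on the processing. *PLK3* was at -0.37 (adjusted p = 0.0340). *BCL2A1*, an antiapoptotic BCL2 family gene, had a mean of -0.94 (adjusted p = 0.00151), but its probes disagreed. The dimmer probe was at -2.23, -1.80 and -1.63 and the brighter was at -0.0006, -0.0018 and 0.01. In the opposite direction, *IL6*, the interleukin 6 gene, was at 2.55, 3.15 and 2.05 and its control was not well above background, so that it was at least 2.82-fold higher in the edited cells (adjusted p = 0.0259, called in 5 of 10 alternatives). *EFNA1*, an ephrin gene, was at 1.59, 1.82 and 1.47 (mean 1.63, adjusted p = 0.00914) and *ZC3H12A*, which encodes the ribonuclease regnase-1, was at 0.73 (adjusted p = 0.0206). *IL6*, *ZC3H12A* and *PLK3* were not called without any 1 of the edited arrays (adjusted p up to 0.144, 0.139 and 0.209), nor was *EFNA1* without GE1 or GE2 (up to 0.0663), and *IL6* was at 0.32 under normexp and loess (adjusted p = 0.480).

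**Figure D4:**
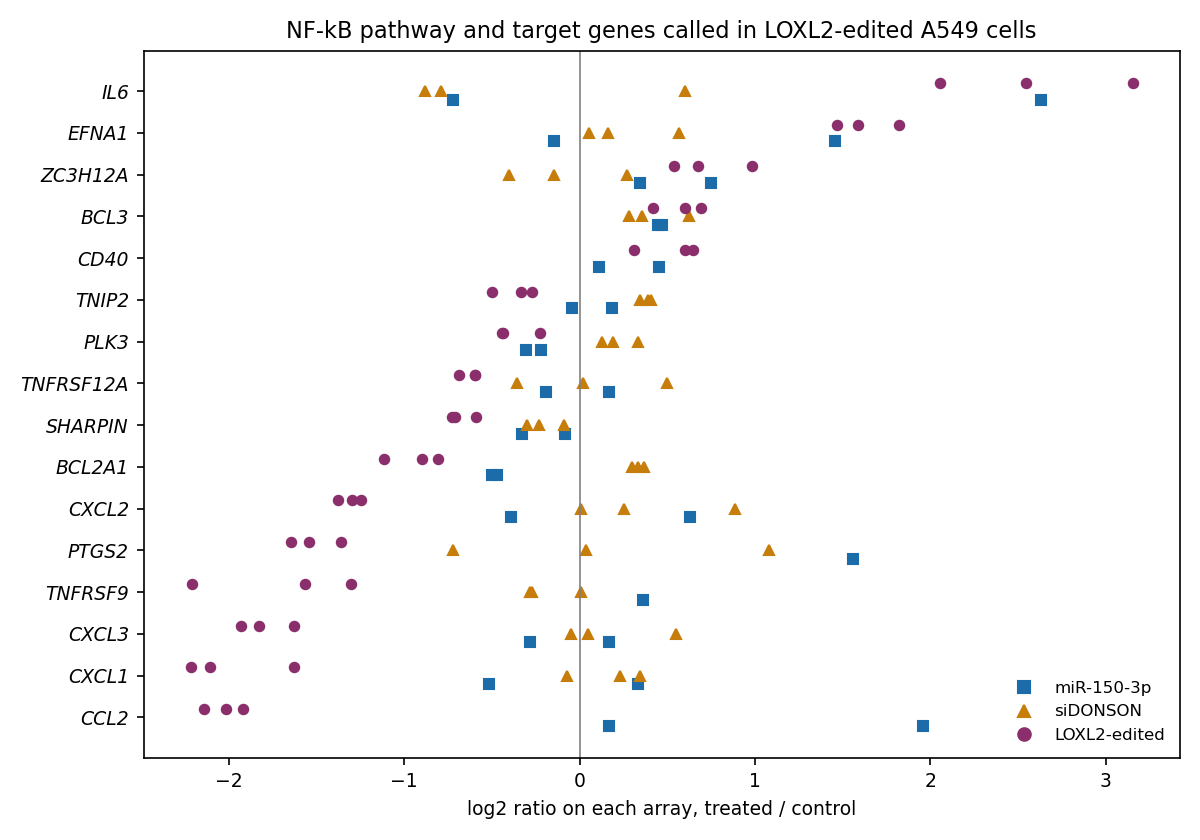
Log2 ratio on each array for the 16 genes of the signalling and further target lists that were called in *LOXL2*-edited A549 cells (circles), with the same genes in the *miR-150-3p* (squares) and siDONSON (triangles) arrays where they have a value. *CXCL1*, *CXCL2*, *CXCL3*, *CCL2*, *PTGS2* and *TNFRSF9* lie below -1 on all 3 edited arrays, and *IL6* and *EFNA1* lie above 1.

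After transfection of *miR-150-3p*, all 10 genes had a mean log2 ratio above 0 over the LUSQ lines, with a median of 0.59 against 0.04 over all genes. None passed the threshold in limma (0 of 10), with 8 at an unadjusted p under 0.05, as had 30.0% of all genes, while 2.47% of 14228 genes were called higher and 2.91% lower. The lowest adjusted p was that of *BIRC3* (0.0523), followed by *ICAM1* (0.0539), *NFKBIA* (0.0601) and *NFKBIE* (0.0637). The count moved with the arrays and the processing, as did the count over all genes. Without SK-MES-1, 6 of the 10 genes were called (*BIRC3*, *ICAM1*, *NFKB1*, *NFKBIE*, *RELA* and *TNFAIP2*), and so were 2972 of all genes (20.1%). Normexp background correction with loess normalization gave 6 (*BIRC3*, *ICAM1*, *NFKB2*, *NFKBIA*, *NFKBIE* and *RELA*) and 1538 of all genes (10.8%). Without EBC-1, limma called 0 of the 10 and 1 of all genes, so that fit says nothing of these genes in particular. The fits without an array assume that the lone array varies like those of the other groups.

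On the EBC-1 array, 8 of the 10 genes lay above the upper 95% limit of the software's error, as did 21.3% of all genes there. On the SK-MES-1 array 4 of the 10 did, as did 9.38% of all genes. Of the targets, *ICAM1* had the highest ratio, at 2.69 (error 0.32) in EBC-1, where the processed intensity went from 569 to 3661. In SK-MES-1 it was at 0.66 (error 0.21), and the intensity went from 472 to 748. *BIRC3* was at 0.85 and 0.53 and *TNFAIP2* at 0.97 and 0.37. Of the inhibitors, *NFKBIA* was at 0.79 and 0.64, although its control level was the highest of the lines in EBC-1. *NFKBIE* was at 0.98 and 0.27, and *TNFAIP3* at 0.34 and 0.06, within the error limits on both arrays. Of the subunits, *NFKB2* was at 0.70 and 0.41, *RELB* at 0.26 and 0.43, *RELA* at 0.53 and 0.16 and *NFKB1* at 0.66 and -0.04.

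For 9 of the 10 genes, all but *RELB*, EBC-1 had the higher ratio. How many of all genes had the higher ratio in EBC-1 was not counted. The difference was beyond the 95% limits of the combined software error for 4 of the 9, as for 9.84% of 14228 genes in that direction. It was 2.02 (combined error 0.39) for *ICAM1*, 0.72 (0.30) for *NFKBIE*, 0.70 (0.30) for *NFKB1* and 0.60 (0.30) for *TNFAIP2*. With 1 array for each line, the difference between the lines has no replicate check.

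**Figure D5:**
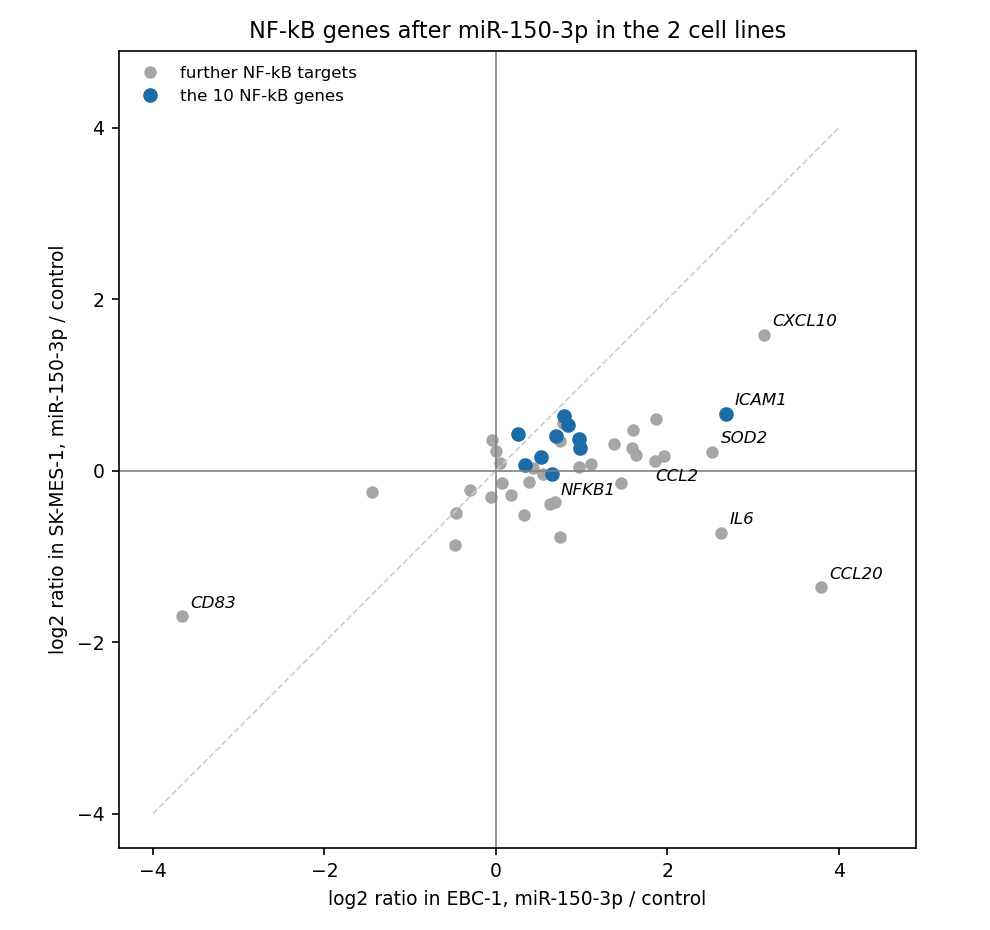
Log2 ratio of *miR-150-3p*-transfected over control cells in EBC-1 (horizontal) and SK-MES-1 (vertical) for the 10 NF-kB genes (blue) and the further NF-kB targets with a value on both arrays (gray), 1 array for each line; the dashed line marks equal ratios. The 10 genes lie to the right of 0, and *ICAM1* reaches 2.69 horizontally and 0.66 vertically.

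Further targets were read on each array in the same way. In EBC-1, 25 of 36 measured genes lay above the upper error limit and 4 lay below the lower, and in SK-MES-1 3 of 36 lay above and 9 below. Over all genes, 3150 of 14759 lay above (21.3%) and 2920 below in EBC-1. In SK-MES-1 it was 1518 of 16175 above (9.38%) and 1468 below, so the 3 above are near the share of all genes. The 9 of 36 below in SK-MES-1 are a larger share than the 1468 of 16175. The list's medians were 0.72 and 0.04. The superoxide dismutase gene *SOD2* was at 2.53 in EBC-1, against 0.22 in the other line, and at 2.44 and 0.18 under normexp and loess. The chemokine gene *CCL20* was not well above background in EBC-1 control cells and was at least 8.35-fold higher after transfection, while its value in SK-MES-1 was -1.36. These values of *CCL20* were much smaller under normexp and loess, at 0.80 and -0.18. Both genes were chosen after their values were seen, and neither was called in the mean of the lines.

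Genes called in the mean of the lines went in both directions, as over all genes, where 2.91% were lower and 2.47% higher. Of 38 signalling genes tested, 1 was lower and 1 was higher, close to those shares. *MYD88*, which encodes the adaptor of Toll-like and interleukin 1 receptors, was at -0.97 and -0.98 (mean -0.97, SE 0.14, adjusted p = 0.0231). *TNFRSF1B*, the gene of TNF receptor 2, was at 1.05 and 1.08 (adjusted p = 0.0422), but its control was not well above background on either array, and it was at least 1.09-fold higher. Of 34 further targets tested, 2 were lower and 1 was higher. *CD83*, a surface protein gene of activated dendritic cells, was at -3.66 and -1.69 (mean -2.68, SE 0.39, adjusted p = 0.0232). *BCL2A1* was at -0.47 and -0.50 (adjusted p = 0.0456), and the death receptor gene *TNFRSF10B* was at 0.78 and 0.55 (mean 0.67, SE 0.11, adjusted p = 0.0295). None of these 5 genes was called without the EBC-1 array. That fit left 1 array in the group and called almost no gene, so the loss says nothing of these genes in particular. *BCL2A1* and *TNFRSF1B* were also lost without SK-MES-1 (0.0650 and 0.0701), and *TNFRSF1B* was at 0.0625 under normexp and loess (adjusted p = 0.550). Of 3 ligand genes tested 0 were called, with 1 at an unadjusted p under 0.05, as had 30.0% of all genes.

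In SBC-3 cells with the siRNAs against *DONSON*, 1 of the 9 genes with values was called, and the arrays differed from each other. Over all 14453 genes tested, 4.01% were called higher and 3.21% lower, that is 579 and 464, a split that median centring of each array turned to 443 higher and 533 lower. *RELA* was at 0.35, 0.55 and 0.49 with siDONSON-1 to siDONSON-3, and averaged 0.46 (SE 0.10, adjusted p = 0.0340, between 0.0208 and 0.177 over the alternatives), a 1.38-fold higher level on 3 of 3 arrays. *RELA* was not called when any 1 of the arrays was left out, nor with the spread of these arrays alone. Calls over all genes, 1043 in the main fit, were 465, 1115 and 97 without siDONSON-1, siDONSON-2 and siDONSON-3. With the spread of these arrays alone they were 26 (0.18%). Apart from the fit without siDONSON-2, the loss is thus not particular to *RELA*. Both of its probes were above 0 on each array. Its 2 probes gave 0.50, 0.53 and 0.57, and 0.20, 0.56 and 0.41.

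*TNFAIP3* was at -0.22 with siDONSON-1, 1.13 with siDONSON-2 and 0.95 with siDONSON-3, so that the first siRNA stood apart. Its mean of 0.62 (SE 0.23, adjusted p = 0.141) was not called, and it was called without siDONSON-1 (adjusted p = 0.0263). The intensities were low, at 68.3, 37.6 and 52.5 in the control cells and 58.6, 82.4 and 101.1 in the treated cells, and the control of siDONSON-2 was not well above background. Under normexp and loess the mean was 0.0987 (adjusted p = 0.262). *NFKBIA* was at 0.29, -0.13 and 0.71 and *NFKB2* at -0.53, 0.20 and 0.03. The means of *NFKB1* (-0.25), *RELB* (-0.03), *NFKBIE* (-0.13), *TNFAIP2* (-0.01) and *ICAM1* (-0.35) were not called, and those of *RELB* and *TNFAIP2* changed sign with the arrays left out.

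Among the 32 signalling genes tested in SBC-3, 1 was lower and 2 were higher, where 3.21% of all genes were lower and 4.01% higher. *TRAF3*, which restrains the noncanonical pathway, was at -0.31, -0.48 and -0.63 (mean -0.47, SE 0.09, adjusted p = 0.0278). *BCL3* was at 0.28, 0.36 and 0.63 (mean 0.42, adjusted p = 0.0467) and *TNIP2* at 0.41, 0.39 and 0.35 (mean 0.38, adjusted p = 0.0451). Of 30 further targets tested, *TNFRSF10B* alone was called, at 0.35, 0.53 and 0.64 (mean 0.51, SE 0.09, adjusted p = 0.0246). *BCL3* and *TNIP2* were not called under median centring (0.0644 and 0.0578), nor without any 1 of the arrays (adjusted p up to 0.170 and 0.121). *TRAF3* was lost without siDONSON-2 or siDONSON-3 (up to 0.109) and *TNFRSF10B* without siDONSON-3 (0.0967), and all 4 were lost with the spread of these arrays alone (0.168 to 0.217). That last fit called 26 of all genes (0.18%), and the fit without siDONSON-3 called 97 (0.655%). No ligand gene had a value on all 3 arrays (0 of 10).

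Whether the treatments differed was tested as the difference of the group means, in which a dye effect of a gene that is the same on every array cancels. These differences share their arrays with the comparisons against control. Between *miR-150-3p* and *LOXL2* editing, 4 of 10 genes differed, where 3.6% of 13777 genes did. The difference was 1.87 for *BIRC3* (SE 0.18, adjusted p = 0.0116) and 1.39 for *NFKBIE* (SE 0.21, adjusted p = 0.0194). It was 1.27 for *NFKB2* (SE 0.22, adjusted p = 0.0304) and 1.25 for *RELB* (SE 0.17, adjusted p = 0.0159), and all 4 were higher with *miR-150-3p*. With single arrays left out the count ran from 0 to 6, being 0 without GE1 or GE2, 1 (*BIRC3*) without GE3, 1 (*NFKBIE*) without EBC-1 and 6 without SK-MES-1, while the calls over all genes went from 496 to between 20 and 1876. Between siDONSON and *LOXL2* editing, 1 of 9 genes differed, where 7.29% of 13655 genes did. This was *RELB*, at a difference of 0.88 (SE 0.16, adjusted p = 0.0198), and none was called without any 1 of the edited arrays (0, with 155 to 239 of all genes called against 995), whereas 3 were without siDONSON-1. Between *miR-150-3p* and siDONSON, limma called 0 of 9 genes, with 5 at an unadjusted p under 0.05, as had 23.0% of 13027 genes, of which 2.69% were called. Without SK-MES-1, 4 were called, as were 14.7% of all genes. Of the pathway lists, 2 of 31 signalling genes and 2 of 26 further targets differed between *miR-150-3p* and siDONSON. Between siDONSON and *LOXL2* editing 2 of 32 and 6 of 28 did, and between *miR-150-3p* and *LOXL2* editing 0 of 35 and 3 of 28. Only some of these genes are named here. *REL*, the gene of the subunit c-Rel, differed between siDONSON and *LOXL2* editing (0.90, SE 0.17, adjusted p = 0.0229). It also differed between *miR-150-3p* and siDONSON (-0.92, SE 0.19, adjusted p = 0.0478), being highest with siDONSON. Against control *REL* was called in no group (adjusted p from 0.0502 to 0.110). *CXCL1* and *CXCL3* were lower with *LOXL2* editing than with siDONSON, by differences of 2.15 (SE 0.25, adjusted p = 0.00576) and 1.98 (SE 0.20, adjusted p = 0.00315), and lower than with *miR-150-3p*, by 1.89 (adjusted p = 0.0194) and 1.74 (adjusted p = 0.0120).

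The genes most like the group in pattern were sought by Pearson's r over the 8 arrays with the mean log2 ratio of the 9 genes that have values on every array. EBC-1 had a mean of 0.88 and SK-MES-1 of 0.33, followed by -0.10, 0.11 and 0.15 with siDONSON-1 to siDONSON-3, and -0.34, -0.26 and -0.27 in GE1 to GE3. Of 4887 genes with values on all arrays and a range of at least 1, the 5 with the highest r were *A4GALT* (0.98), *OPLAH* (0.98), *RPGR* (0.98), *PSMB10* (0.97), a subunit gene of the immunoproteasome, and *ANTXR1* (0.97). The 8 arrays come from 4 cell lines on a shared slide, and these values are a description only.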

How the data were processed

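The authors deposited the output of Agilent Feature Extraction 12.1.1.1 for each array, from which the processed intensity of each channel was used. These deposited intensities had been background-subtracted and dye-normalized by that software. The deposited table of the series holds log10 ratios of the same arrays and served as an alternative. The deposited files also give p-values of each log ratio from the software's error model, which were not used, and an error of each log ratio (a score on the log10 scale), which set the 95% limits for single arrays. All arrays were on 1 slide, so no slide block could be fitted, and there was no dye swap, so a dye bias of a single gene stays in each mean tested against 0.

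After removal of control and flagged spots, repeated spots were averaged by probe. Probes dim in both channels of an array had no value there, and the log2 ratios of the remaining probes were averaged by gene. limma 3.58.1 (R 4.3.3) fitted 3 groups to 8 arrays (lmFit, eBayes), two-sided, with Benjamini-Hochberg adjustment over all genes tested and a threshold of 0.05. A gene was tested where every array of the comparison had a value. The array design names genome build hg19, and probes were named through RefSeq accessions (31104 of 58201 probes). The normexp alternative (offset 50) used median signals, which the files hold, in place of the planned mean signals. Figures were drawn with matplotlib 3.10.9 in Python 3.11.15. The number of arrays limits the precision.

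Named genes are the 10 members, *DONSON* and *LOXL2*, the genes of the pathway lists called against control (all are named, beyond the 8 largest per comparison that the rule asks for), some called between treatments, and the 5 genes most like the members in pattern. The members and lists were chosen with earlier results of these data known. The fit was tested on simulated data.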

Additional observations from a re-analysis of the deposited data

Results flagged for a closer look

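*NFKB1* had log2 ratios of opposite sign after *miR-150-3p* transfection, 0.66 (software error 0.21) in EBC-1 and -0.04 (error 0.20) in SK-MES-1, a difference of 0.70. With 1 array for each line the difference was not tested across replicates, and the value in SK-MES-1 did not pass the software's 95% limit of 0.40.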

How the results depend on the processing

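The 5 genes called in *LOXL2*-edited cells were called under all 8 alternatives that kept the 3 edited arrays, and leaving out an array gave 2 in each case. For *miR-150-3p* against control, the count of 0 moved to 3 with both channels required above background, 1 with the brightest probe, 6 with normexp and loess, and 0 to 6 with an array left out. For siDONSON it moved to 0 with the group's own spread and 0 to 1 with an array left out. Under normexp and loess the count was 1 between *miR-150-3p* and siDONSON and 2 between siDONSON and *LOXL2* editing. With arrays left out these counts ran from 0 to 4 and 0 to 3, and that between *miR-150-3p* and *LOXL2* editing from 0 to 6. The causes were not tested. Calls over all genes under normexp and loess were 1538 for *miR-150-3p*, against 766. With no filter on dim probes they were 198 for *miR-150-3p*, 2897 for siDONSON (1043 otherwise) and 5375 for *LOXL2* editing (2229 otherwise). With each group's own spread they were 0, 26 and 5873, and with an array left out 1 to 2972, 97 to 1115 and 470 to 588. Between treatments, normexp and loess gave 605 (350 otherwise) for *miR-150-3p* and siDONSON, 1009 (496 otherwise) for *miR-150-3p* and *LOXL2* editing and 1609 (995 otherwise) for siDONSON and *LOXL2* editing. The first was 78 with no filter, and with an array left out these counts went as low as 14, 20 and 155 and as high as 1947 and 1876 for the first and second.

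Values that changed sign were none of the 10 genes' called means. They were *NFKB1* with *miR-150-3p* (from -0.039 without EBC-1 to 0.657 without SK-MES-1), and with a siDONSON array left out *NFKB2* (-0.247 to 0.117), *RELB* (-0.182 to 0.0682, and 0.0268 without siDONSON-1) and *TNFAIP2* (-0.123 to 0.166). In *LOXL2*-edited cells *NFKBIA* was at -0.0024 under median centring and ran from -0.0315 to 0.0654 with an array left out. Between *miR-150-3p* and siDONSON, *RELA* ran from -0.305 without EBC-1 to 0.0716 without SK-MES-1 and was at 0.0302 under normexp and loess, where *TNFAIP3* was at 0.0127. *BCL2A1* in *LOXL2*-edited cells was at 0.0036 by its brightest probe. Of the 77 single values of the 10 genes, 41 were above 0, and 44 under normexp and loess. No paired analysis was possible because the replicate numbers name different siRNAs and different edited samples in different cell lines. Signal over background limits *BIRC3* in SBC-3 and *ICAM1* and *IL6* in A549, which have a bound or no fold.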
